A study of Homo sapiens with 18 samples.

Results

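The comparison described here set 3 arrays of KMS12-BM cells given amiloride against 3 arrays of KMS12-BM cells given DMSO, 6 of the 18 arrays of the series. The arrays were chosen by line and treatment from the sample titles, and no measured value entered the choice. KMS12-BM is an established human multiple myeloma line, a culture of malignant plasma cells that activates the cyclin D1 gene through an immunoglobulin translocation. Its treated cells received 0.1 mM amiloride, a diuretic whose known target is the sodium channel of kidney epithelium, and its control cells received DMSO. JJN3, a plasma cell leukemia line given 0.4 mM amiloride or DMSO on 3 arrays each, is used below only as a second line. Its dose was higher, so dose and line cannot be told apart. Amiloride was applied for 24 h in both lines. The remaining arrays were of both lines given TG003, an inhibitor of the CLK kinases, and entered only the shared estimate of spread. No label ties the 3 arrays of a group to separate cultures, so p-values measure the spread between these arrays, which may be technical. The extract is given as total RNA in the sample labels and as poly A+ RNA in the series design.

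Values are log2 intensities, 1 probe set for each of 22465 genes. Changes are differences of group means, amiloride minus DMSO, ± the standard error from limma with n = 3 arrays per group, and each adjusted p comes from limma with Benjamini-Hochberg adjustment over all 22465 genes at a threshold of 0.05. "Rose" and "fell" are used of genes past that threshold. A background reference of 6.99, the 95th percentile of 92 ERCC control probe sets, marks dim genes. Where 1 group lay under it on all 3 arrays, the brighter group is given as at least N-fold higher or the dimmer group as at least N-fold lower than the other, counted against the reference. Where both groups lay under it, no fold is given. Across genes, arrays correlated at 0.9975 to 0.9983 within amiloride, at 0.997 to 0.9979 within DMSO and at 0.9801 to 0.9863 between the groups. The third amiloride array has a cell line field that reads JJN3, while its title, disease and dose fields are those of KMS12-BM. Its r was 0.9975 to 0.9983 with amiloride arrays 1 and 2 of KMS12-BM and 0.9311 to 0.9325 with the JJN3 amiloride arrays.

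The line showed part of a plasma cell's markers. CCND1 lay at 14.98, 15.11 and 14.84 with amiloride and at 15.07, 14.85 and 14.70 with DMSO, and CCND2 lay below the reference on all 6 arrays. In JJN3 DMSO arrays the means were 6.08 for CCND1 and 15.22 for CCND2. IRF4, PRDM1, XBP1, MZB1, CD38 and TNFRSF17 lay above the reference on all 6 KMS12-BM arrays, and IRF4, the factor myeloma cells rely on, rose by 0.78. SDC1, the classic plasma cell surface antigen, SLAMF7 and the immunoglobulin joining chain gene JCHAIN lay below it on all 6. Markers of other cell types were dim: none of 10 T and NK cell, 9 myeloid, 8 stromal and endothelial and 5 erythroid marker genes had a mean over all 18 arrays above the reference. The mean level of the T and NK list was 4.24 to 4.26 on amiloride arrays and 4.34 to 4.44 on DMSO arrays, and that of the myeloid list was 4.35 to 4.46 on amiloride arrays and 4.36 to 4.46 on DMSO arrays.

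As background, a cell that lacks amino acids, misfolds protein in the endoplasmic reticulum (ER) or is otherwise stressed has kinases that phosphorylate the translation factor eIF2. General translation then drops while ATF4 is translated more, and ATF4 switches on genes for amino acid import, amino acid synthesis and tRNA charging. Plasma cells secrete so much antibody that they depend on the ER chaperones of a related pathway, the unfolded protein response. The factors SREBP for sterols and E2F for DNA replication likewise each drive a set of genes together.

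Amiloride changed 6865 of 22465 genes in KMS12-BM, 30.6%. Of these 3810 rose, 17.0% of all genes, and 3055 fell, 13.6%. At least 2-fold changes numbered 790 up and 619 down. Array groups did not overlap for 6707 of the called genes, against 42.9% of all genes and 69.3% of those above the reference. Among the 7105 genes whose mean over the 18 arrays lay above the reference, 61.4% were called, 37.0% rose and 24.4% fell, with a median change of 0.11, whereas the median over all genes was -0.02. Most lists below hold mainly genes above the reference, so both pairs of shares are the background against which their counts are read. The 2-fold split was 56.1% up as deposited and 46.0% up after a further quantile normalization, with 599 up and 703 down. Without the array whose cell line field reads JJN3, 6080 genes were called. The amiloride arrays were not alike. Of the 790 genes that rose at least 2-fold, amiloride array 1 was the lowest of the 3 amiloride arrays for 617, 78.1%, and for 403 of the 619 that fell, 65.1%, amiloride array 3 was the lowest. The part of single arrays in these changes was not tested beyond leaving each out in turn.

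**Figure D1:**
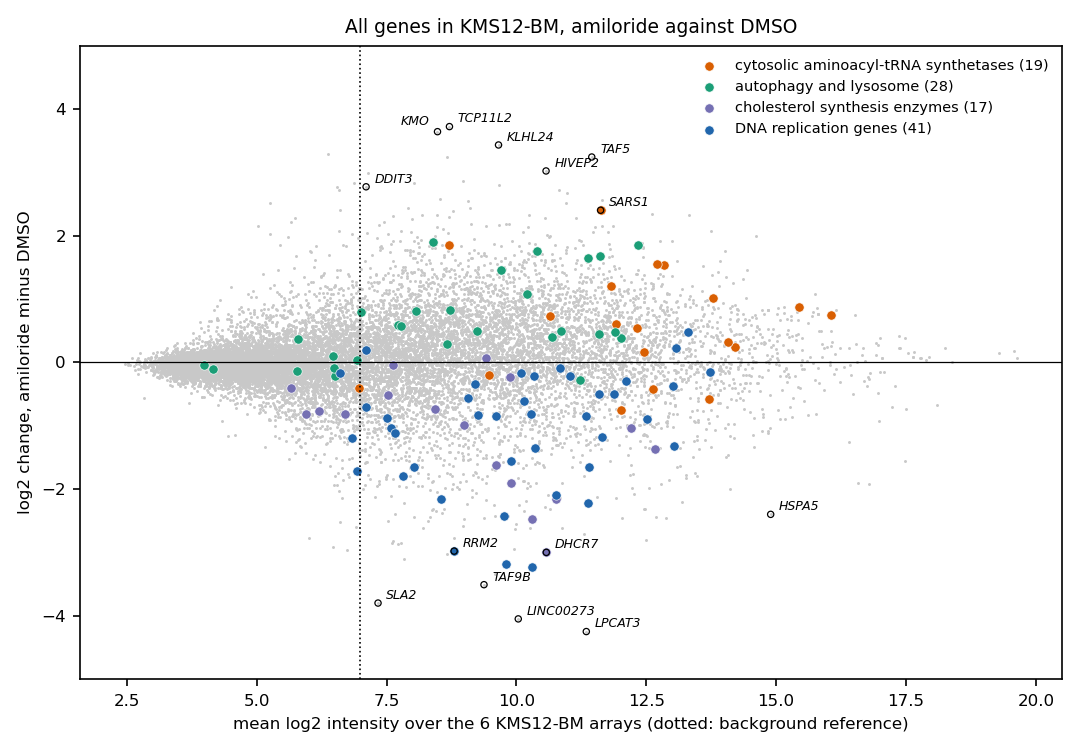
Log2 change with amiloride (vertical axis) against the mean log2 intensity over the 6 KMS12-BM arrays (horizontal axis) for 22465 genes in grey, with members of 4 lists in colour and 14 genes circled and named. Cholesterol synthesis and DNA replication genes lie mostly below 0, cytosolic aminoacyl-tRNA synthetases and autophagy genes mostly above it, and the dotted line is the background reference of 6.99.

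The 12 largest rises were led by TCP11L2, which had 10.49, 10.59 and 10.63 with amiloride against 6.85, 7.0 and 6.71 with DMSO. KMO, the kynurenine hydroxylase of tryptophan breakdown, had 9.88, 10.46 and 10.56 with amiloride against 6.57, 7.02 and 6.39 with DMSO. KLHL24, which encodes a substrate adaptor of a ubiquitin ligase, had 10.95, 11.53 and 11.62 with amiloride against 7.86, 8.08 and 7.87 with DMSO. All 3 genes rose, by 3.72 ± 0.24, 3.64 ± 0.17 and 3.43 ± 0.21 (adjusted p = 7e-09, 2.9e-10 and 4.4e-09, limma), and for TCP11L2 and KMO 2 of the 3 DMSO arrays lay below the reference. The 12 were chosen from called genes whose arrays did not overlap, so that separation was set by the choice. SLC16A4, a monocarboxylate carrier gene, lay at 7.65, 8.04 and 8.36 with amiloride against 4.73, 4.7 and 4.74 with DMSO, at least 2.04-fold higher. The others were BRI3, TAF5, HIVEP2, CREBRF, CHMP4C of the membrane-cutting ESCRT machinery, the long noncoding RNA LINC00899, the transcription factor gene RFX3 and the histone gene H2AC6. Histone genes resemble each other closely, and a probe set may not read 1 of them alone. BRI3 had 9.69, 10.52 and 10.62 with amiloride against 7.12, 6.99 and 6.99 with DMSO. Amiloride array 1 was the lowest of its group for 11 of these 12 genes. In JJN3 6 of the 12 rose, against 8.65% of all genes and 21.0% of those above the reference.

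The 12 largest falls were led by LPCAT3, which puts polyunsaturated acyl chains into membrane phospholipids. It had 9.53, 9.21 and 8.93 with amiloride against 13.54, 13.37 and 13.52 with DMSO and fell by 4.25 ± 0.16 (adjusted p = 7.3e-11, limma). LINC00273, a long noncoding RNA, had 8.14, 7.98 and 7.91 with amiloride against 11.97, 12.40 and 11.82 with DMSO. SLA2, an adaptor of lymphocyte receptor signalling, had 5.60, 5.44 and 5.27 with amiloride against 9.72, 9.14 and 8.83 with DMSO, at least 4.73-fold lower. The 12 falls were likewise chosen from called genes without overlap, so the separation of their arrays was set by the choice. The rest were TAF9B of the general transcription factor TFIID, FAM111B, the septin gene SEPTIN3, the chromatin remodeller gene CHD1L, the aldolase gene ALDOC, the sterol reductase gene DHCR7, and POLA2, CHAF1B and RRM2 of DNA replication. FAM111B fell by 3.34 ± 0.13, SEPTIN3 fell by 3.32 ± 0.12 and CHD1L fell by 3.03 ± 0.10. CHD1L also fell by 2.0 in JJN3 (adjusted p = 1.2e-08, limma), whereas LINC00273 changed there by -0.08 and was not called. SLA2 lay below the reference in JJN3, at 4.42 with amiloride and 4.36 with DMSO. In JJN3 9 of these 12 fell, against 6.12% of all genes and 12.2% of those above the reference.

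**Figure D2:**
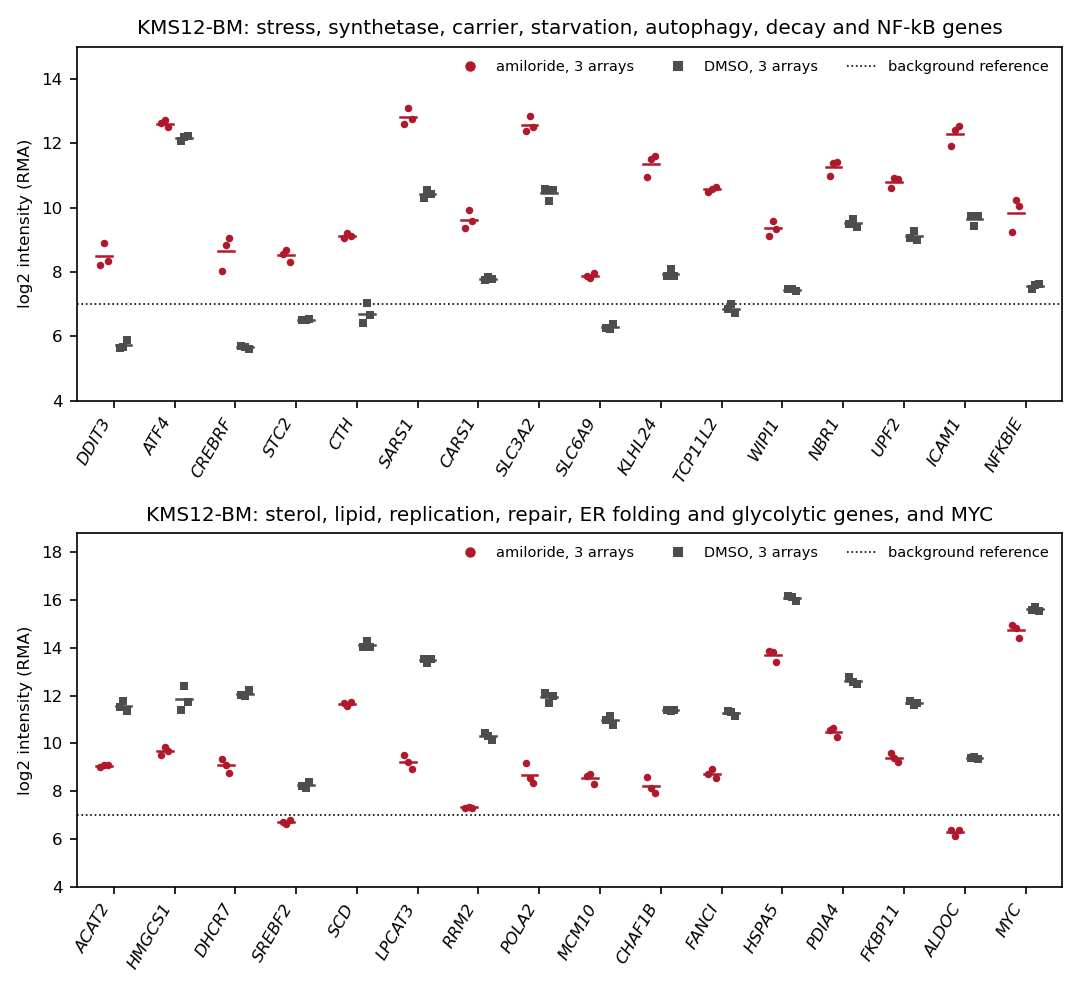
Log2 RMA intensity of 32 genes on each KMS12-BM array, amiloride as red circles on the left and DMSO as grey squares on the right of each pair, with bars at the group means and the background reference of 6.99 dotted. In the upper panel every gene is higher on the 3 amiloride arrays, and in the lower panel every gene is lower on them.

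Genes of the integrated stress response rose together: of 23 measured, 17 rose, 1 fell and 5 were not called, with a median change of 0.58. Among the 4 eIF2 kinases, EIF2AK4, which senses uncharged tRNA, had 12.44, 12.69 and 12.51 with amiloride against 11.26, 11.50 and 11.41 with DMSO and rose by 1.16 ± 0.08 (adjusted p = 9.6e-09, limma). EIF2AK2, the kinase that binds double-stranded RNA, was the 1 member that fell: it had 6.88, 6.49 and 6.44 with amiloride against 8.49, 8.25 and 7.80 with DMSO, at least 2.28-fold lower. Of the regulatory subunits that bring a phosphatase back to eIF2, PPP1R15B, the constitutive one, had 13.89, 13.87 and 13.92 with amiloride against 12.40, 12.18 and 12.28 with DMSO. It rose by 1.60 ± 0.09 (adjusted p = 1.6e-09, limma). PPP1R15A, the stress-induced one, was called but lay below the reference throughout, at 5.78, 6.17 and 5.93 with amiloride and 4.89, 4.89 and 4.88 with DMSO.

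The transcription factors of this response moved by very different amounts. ATF4 itself had 12.62, 12.72 and 12.50 with amiloride against 12.07, 12.21 and 12.23 with DMSO, a rise of 0.44 ± 0.08 (adjusted p = 0.00026, limma). DDIT3, the stress factor CHOP, had 8.23, 8.90 and 8.33 with amiloride against 5.62, 5.67 and 5.87 with DMSO. The DMSO arrays all lay under the reference, so DDIT3 was at least 2.83-fold higher (adjusted p = 1.5e-08, limma). CREBRF, a regulator of the unfolded protein response, had 8.03, 8.83 and 9.06 with amiloride against 5.70, 5.68 and 5.61 with DMSO and was at least 3.14-fold higher. Both groups stayed apart for ATF4 and DDIT3, and for CREBRF the choice among the 12 largest rises required it.

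Among the targets, CTH, which makes cysteine from cystathionine, had 9.06, 9.22 and 9.12 with amiloride against 6.42, 7.02 and 6.67 with DMSO, a rise of 2.43 ± 0.23 (adjusted p = 4.5e-07, limma) with 2 of the 3 DMSO arrays below the reference. STC2, a secreted glycoprotein gene, had 8.57, 8.68 and 8.32 with amiloride against 6.5, 6.5 and 6.53 with DMSO, at least 2.90-fold higher. TRIB3, a pseudokinase that restrains ATF4 and was picked here after its values were seen, had 9.08, 9.67 and 9.07 with amiloride against 7.35, 7.42 and 7.63 with DMSO, a rise of 1.80 ± 0.14. GDF15 and VLDLR, also named after their values were seen, were not called and lay below the reference on all 6 arrays. In JJN3 the list's median was -0.04. The difference between the lines was called for 17 of the 23, with the change higher in KMS12-BM for 16. That difference was called for 18.5% of all genes and 37.4% of those above the reference, and with the change higher in KMS12-BM for 9.78% and 20.3%. Of the 23 members 14 had a mean above the reference. In JJN3 CTH was called lower (adjusted p = 0.0024, limma), with means of 5.91 with amiloride, below the reference, and 7.06 with DMSO. DDIT3 was below the reference there in both groups, at 4.86 with amiloride and 4.84 with DMSO.

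The cytosolic aminoacyl-tRNA synthetases, which charge tRNAs with amino acids, rose for 12 of 19 and fell for 3, with a median of 0.60. SARS1, for serine, had 12.60, 13.09 and 12.77 with amiloride against 10.30, 10.54 and 10.42 with DMSO, a rise of 2.40 ± 0.16 (adjusted p = 1.2e-08, limma). CARS1, for cysteine, had 9.38, 9.92 and 9.59 with amiloride against 7.74, 7.84 and 7.78 with DMSO, a rise of 1.85 ± 0.15 (adjusted p = 6.7e-08, limma). Both were named as the called members with the largest changes, so the distance between their arrays was largely set by that choice. The 3 that fell were FARSB and QARS1, at -0.58 and -0.75, and HARS1, at least 1.13-fold lower with its amiloride arrays under the reference. Of the 16 mitochondrial synthetases 1 rose and 6 fell, with a median of -0.05 whose sign turned under some alternatives. FARS2, for phenylalanine in mitochondria, was the 1 that rose, by 0.81 ± 0.16. SARS2, the mitochondrial counterpart of SARS1, had 5.43, 5.11 and 5.34 with amiloride and 6.56, 6.36 and 6.77 with DMSO, all below the reference. The difference between the lines was called for 12 of the 19 cytosolic synthetases and for 3 of the 16 mitochondrial ones, against 37.4% of genes above the reference. The cytosolic median in JJN3 was -0.17.

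Amino acid carriers were split. Of 17, 5 rose and 3 fell. SLC3A2, the heavy chain that several carriers share, had 12.39, 12.84 and 12.50 with amiloride against 10.58, 10.22 and 10.54 with DMSO and rose by 2.13 ± 0.12 (adjusted p = 1.8e-09, limma). SLC7A11, the cystine light chain that pairs with it, had 7.45, 7.57 and 7.31 with amiloride against 6.08, 6.41 and 6.20 with DMSO, at least 1.37-fold higher. SLC7A6, another light chain, fell by 0.81 ± 0.11, and SLC43A1, a carrier of large neutral amino acids, fell by 1.26 ± 0.18. The glycine carrier gene SLC6A9 had 7.86, 7.82 and 7.97 with amiloride against 6.27, 6.24 and 6.37 with DMSO, at least 1.87-fold higher. Of 12 enzymes of serine and one-carbon metabolism 7 rose and 3 fell. The 3 of serine synthesis, PHGDH, PSAT1 and PSPH, rose by 0.63 to 0.88, and among the mitochondrial folate enzymes SHMT2 rose by 0.73 ± 0.12 and ALDH1L2 by 0.95 ± 0.19. The 3 cytosolic folate enzymes measured fell, MTHFD1 by 1.17 ± 0.12 and TYMS, the thymidylate synthase, by 1.99 ± 0.11, while SHMT1 was at least 1.45-fold lower. PSAT1 had 15.64, 15.39 and 15.14 with amiloride against 14.43, 14.79 and 14.68 with DMSO (adjusted p = 0.036, limma), and its call was lost when amiloride array 1 or 2 or DMSO array 1 or 3 was left out, where adjusted p reached 0.13. The difference between the lines was called for 11 of these 12 enzymes, against 37.4% of genes above the reference, and the JJN3 median was -0.58.

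ATF4 acts through a composite element in its targets' promoters. The letters TGATGNAA, on either strand, were searched in the 300 bases from 250 before to 50 after each RefSeq start site (GRCh38.p14). They occurred in 7 of 16 cytosolic synthetase genes with a window, 43.8%, in 5 of 15 amino acid carriers in 4 of 21 stress response genes and in 2 of 9 serine and one-carbon genes, against 3.71% of 15247 measured genes. Each of the 7 synthetase genes and each of the 4 stress response genes with a match rose, and of the 5 carriers with a match 2 rose and 1 fell. Of those 4 stress response genes, ATF3 lay below the reference on every KMS12-BM array of both groups. With or without a match, 12 of 19 cytosolic synthetases and 17 of 23 stress response genes rose. Of the serine and one-carbon genes with a match GOT1 rose and ASNS was not called. Windows of 80 bases are shown for 6 risers of these lists, chosen after their values were seen, to let the shared letters be compared, with the match in capitals.
CARS1, chr11:3057382-3057461, minus strand: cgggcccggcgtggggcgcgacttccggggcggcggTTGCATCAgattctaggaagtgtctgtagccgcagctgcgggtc
TARS1, chr5:33440931-33441010, plus strand: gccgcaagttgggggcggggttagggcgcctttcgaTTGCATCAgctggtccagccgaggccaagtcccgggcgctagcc
MARS1, chr12:57488028-57488107, plus strand: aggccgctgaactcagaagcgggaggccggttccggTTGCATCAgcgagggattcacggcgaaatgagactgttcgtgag
AARS1, chr16:70289650-70289729, minus strand: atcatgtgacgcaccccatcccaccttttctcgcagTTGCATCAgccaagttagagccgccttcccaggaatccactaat
SLC3A2, chr11:62881669-62881748, plus strand: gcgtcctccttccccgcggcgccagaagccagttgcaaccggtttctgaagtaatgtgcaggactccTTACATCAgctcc
PPP1R15B, chr1:204411988-204412067, minus strand: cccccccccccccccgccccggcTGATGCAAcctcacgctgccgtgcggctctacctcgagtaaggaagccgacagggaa
Of the genes shown, TARS1, for threonine, had 13.42, 13.58 and 13.44 with amiloride against 11.86, 12.11 and 11.83 with DMSO. MARS1, for methionine, had 13.56, 13.81 and 13.47 with amiloride against 12.04, 12.11 and 12.06 with DMSO, and AARS1, for alanine, had 14.16, 14.48 and 14.20 with amiloride against 13.32, 13.25 and 13.24 with DMSO. They rose by 1.55 ± 0.15, 1.54 ± 0.16 and 1.01 ± 0.13. In CARS1, TARS1, MARS1 and AARS1 the match reads the same 8 letters, on the opposite strand to the letters searched. Counted from the start site, it begins at -2 in CARS1, at 2 in TARS1, at -4 in MARS1 and at -187 in AARS1. A match is a description of these letters and not evidence of binding.

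Genes that other work places under FOXO factors or starvation rose for 12 of 27 and fell for none, with a median of 0.25. Only 11 of the 27 had a mean over the 18 arrays above the reference. Of all genes 17.0% rose and 13.6% fell, and of those above the reference 37.0% rose and 24.4% fell. Beside KLHL24 and TCP11L2, the group held MXI1, an antagonist of MYC, which rose by 0.62 ± 0.10 and fell by 0.32 in JJN3 (adjusted p = 0.041, limma). TXNIP, an inhibitor of thioredoxin and of glucose uptake picked after its values were seen, had 11.04, 10.97 and 10.88 with amiloride against 9.33, 9.22 and 8.87 with DMSO. The FOXO genes themselves were not called, with FOXO1 at 0.36 and FOXO3 at 0.04.

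Autophagy and lysosome genes rose for 20 of 28 and fell for 1, with a median of 0.49. WIPI1, which marks the forming autophagosome, had 9.13, 9.60 and 9.34 with amiloride against 7.48, 7.48 and 7.40 with DMSO and rose by 1.9 ± 0.15 (adjusted p = 6.3e-08, limma). RB1CC1, a scaffold of the initiating kinase complex, rose by 1.67 ± 0.10. The 4 cargo receptors all rose. TAX1BP1 had 13.18, 13.38 and 13.23 with amiloride against 11.27, 11.73 and 11.25 with DMSO. NBR1 had 11.0, 11.40 and 11.41 with amiloride against 9.49, 9.64 and 9.40 with DMSO. Neither overlapped, but both were named for the largest changes among the receptors, and 69.3% of genes above the reference did not overlap. MAP1LC3B, the protein conjugated to the growing membrane, rose by 1.46 ± 0.14. Of the 8 lysosome genes 4 rose, among them LAMP1 by 0.50 ± 0.11 and the proton pump subunit gene ATP6V0D1 by 0.83 ± 0.16. In JJN3 8 of the 28 rose and none fell, with a median of 0.17, against 21.0% of genes above the reference that rose there. WIPI1 changed by -0.25 in JJN3, where it was not called, and the difference between the lines was 2.15 ± 0.21 (adjusted p = 4.3e-06, limma).

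**Figure D3:**
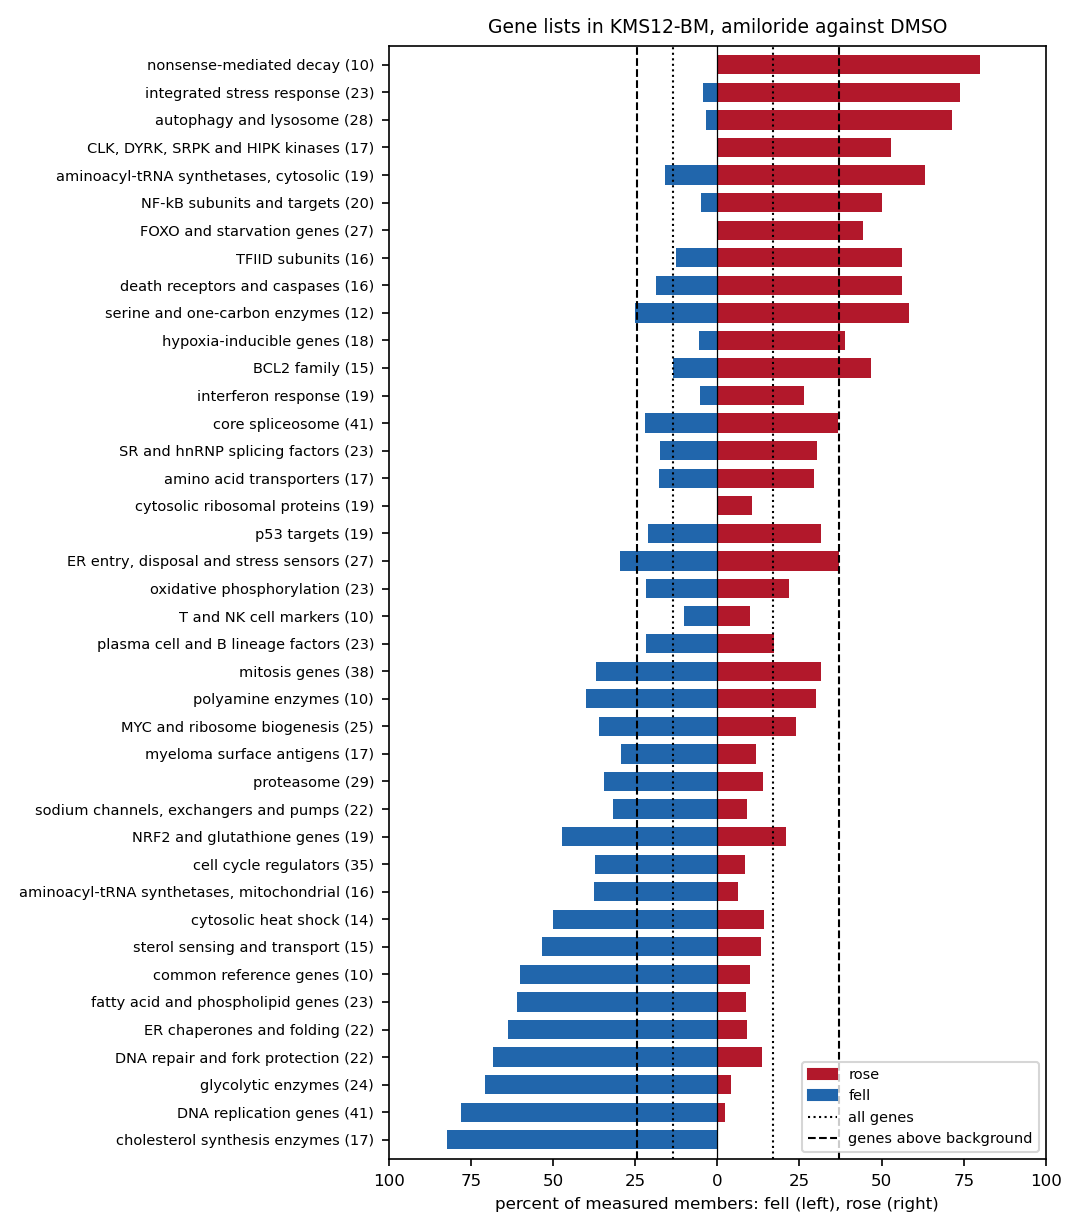
Percent of the measured members of each list that rose (right, red) or fell (left, blue) with amiloride in KMS12-BM, with the number measured in brackets, for lists of 10 or more members. Dotted lines mark the shares over all genes (17.0% rose, 13.6% fell) and dashed lines those over genes above background (37.0% and 24.4%). Nonsense-mediated decay and the integrated stress response stand at the top, DNA replication and cholesterol synthesis at the bottom.

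ER folding genes went the other way: of 22 measured, 14 fell and 2 rose, with a median of -0.51. HSPA5, the chaperone BiP and a standard readout of ER stress, had 13.86, 13.81 and 13.41 with amiloride against 16.18, 16.14 and 15.97 with DMSO and fell by 2.40 ± 0.16 (adjusted p = 1.5e-08, limma). PDIA4, a disulfide isomerase, had 10.54, 10.63 and 10.26 with amiloride against 12.77, 12.55 and 12.50 with DMSO and fell by 2.13 ± 0.10. FKBP11, a prolyl isomerase of secretory cells, had 9.59, 9.38 and 9.23 with amiloride against 11.79, 11.59 and 11.69 with DMSO and fell by 2.29 ± 0.12. Amiloride arrays lay below every DMSO array for all 3, which were named for the largest falls in their parts of the list. Array groups did not overlap for 69.3% of genes above the reference. HYOU1, an exchange factor of HSPA5, fell by 0.84 ± 0.10, and P4HA1, a collagen prolyl hydroxylase, by 1.87 ± 0.18. The 2 that rose were DNAJB9 and the oxidase gene ERO1B, and both lay below the reference on all 6 arrays. DNAJB9 had means of 6.37 with amiloride and 5.87 with DMSO, and ERO1B had 6.44, 6.75 and 6.79 with amiloride and 5.55, 5.75 and 5.56 with DMSO. In JJN3 9 of the 22 fell and none rose, with a median of -0.26, against 12.2% of genes above the reference that fell there. HSPA5 itself changed by -0.22 in JJN3 (adjusted p = 0.52, limma), and the 2 lines differed by -2.19 ± 0.23.

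Of 27 genes for ER entry, disposal and stress sensing 10 rose and 8 fell. XBP1, the factor that the sensor IRE1 activates by splicing, had 11.34, 11.97 and 11.81 with amiloride against 10.90, 10.91 and 10.80 with DMSO, a rise of 0.84 ± 0.19 (adjusted p = 0.0025, limma). A gene-level value does not separate its spliced from its unspliced form. EDEM1, a lectin of ER-associated degradation, had 13.37, 13.33 and 13.31 with amiloride against 11.59, 11.63 and 11.33 with DMSO, a rise of 1.82 ± 0.14 (adjusted p = 4.4e-08, limma). Of the 13 disposal genes 7 rose and 3 fell, among them DERL3, at least 1.39-fold lower. Of the 9 genes for entry into the ER 4 fell and 1 rose. SSR1, a subunit of the translocon-associated complex, fell by 0.96 ± 0.13, and SEC62, a translocation factor, rose by 0.92 ± 0.11.

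The ER stress element, CCAAT and CCACG with 9 bases between them, occurred in 6 of 21 ER folding genes with a window, 28.6%, and in 1 of 24 sensor, entry and disposal genes, against 0.125% of 15247 measured genes. Of the 6, 4 fell and 1, ERO1B, rose. ERO1B and CRELD2, another of the 6, lay below the reference on every KMS12-BM array of both groups. The whole window of HSPA5 and 80 bases of XBP1 and ERO1B are shown because genes with the same element moved in opposite directions, with the CCAAT and CCACG parts of the element in capitals.
HSPA5, chr9:125241294-125241593, minus strand: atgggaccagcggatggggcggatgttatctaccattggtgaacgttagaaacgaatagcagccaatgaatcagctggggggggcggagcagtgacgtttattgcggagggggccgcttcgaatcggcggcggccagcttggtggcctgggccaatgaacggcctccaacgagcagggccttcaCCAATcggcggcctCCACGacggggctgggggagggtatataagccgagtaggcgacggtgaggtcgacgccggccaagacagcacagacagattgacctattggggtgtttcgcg
XBP1, chr22:28800573-28800652, minus strand: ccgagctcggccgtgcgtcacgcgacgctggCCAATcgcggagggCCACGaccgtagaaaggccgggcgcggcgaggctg
ERO1B, chr1:236282129-236282208, minus strand: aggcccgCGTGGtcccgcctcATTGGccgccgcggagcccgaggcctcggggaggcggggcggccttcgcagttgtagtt
Counted from the start site, the element begins at -66 in HSPA5, at -52 in XBP1 and at -243 in ERO1B, where it lies on the other strand.

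Cholesterol synthesis fell as a group: 14 of 17 enzymes measured fell, none rose, and the median was -0.81. Of the first steps, ACAT2 had 9.01, 9.09 and 9.09 with amiloride against 11.50, 11.75 and 11.37 with DMSO and fell by 2.47 ± 0.09 (adjusted p = 7.3e-11, limma), and HMGCS1 had 9.53, 9.83 and 9.68 with amiloride against 11.39, 12.41 and 11.71 with DMSO and fell by 2.16 ± 0.19. SQLE, which makes squalene epoxide, fell by 1.37 ± 0.10. Of the late steps, DHCR7, the last reductase, had 9.36, 9.11 and 8.75 with amiloride against 12.03, 11.96 and 12.24 with DMSO and fell by 3.0 ± 0.19 (adjusted p = 5.7e-09, limma). TM7SF2, a sterol reductase, fell by 1.9 ± 0.13. The enzymes not called were PMVK, HSD17B7 and SC5D, at -0.23, -0.04 and 0.07. In JJN3 the median was -0.53, and the difference between the lines was called for 5 of the 17, each with the lower change in KMS12-BM, against 37.4% of genes above the reference in either direction.

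Genes of sterol sensing and transport fell for 8 of 15 and rose for 2. Of the 7 sensing genes 4 fell and 1 rose, and the 4 grouped as uptake all fell. Of the 4 grouped as efflux 1 rose and none fell. SREBF2, the factor that drives cholesterol synthesis genes, had 6.72, 6.61 and 6.79 with amiloride against 8.23, 8.12 and 8.36 with DMSO, at least 2.37-fold lower (adjusted p = 1.8e-07, limma). INSIG1, the anchor that holds it in the ER and is itself a target, had 9.89, 10.44 and 10.45 with amiloride against 11.01, 11.81 and 11.35 with DMSO. TMEM97, a sterol-responsive membrane protein, fell by 1.79 ± 0.13, and the sterol exporter of lysosomes NPC1 by 0.88 ± 0.11. NR1H3, the oxysterol receptor, was called higher but lay under the reference on all 6 arrays, at 5.97, 6.03 and 5.97 with amiloride and 5.42, 5.37 and 5.44 with DMSO. A 10-letter form of the sterol regulatory element occurred in 12 of the 15247 measured genes with a window, 0.0787%. It was in none of the 15 cholesterol synthesis genes with a window and in 1 of 14 sterol sensing and transport genes. That gene was SREBF2, and 80 bases around the element, in capitals, are shown.
SREBF2, chr22:41832936-41833015, plus strand: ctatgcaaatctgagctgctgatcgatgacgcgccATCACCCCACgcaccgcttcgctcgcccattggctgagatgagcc
Many natural elements differ from these 10 letters. The shorter CCAAT box was in 13 of the 15 cholesterol synthesis genes, 86.7%, against 41.9% of all measured genes, and 11 of those 13 fell. The CCAAT letters are also part of the ER stress element.

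Fatty acid and phospholipid genes fell for 14 of 23 and rose for 2. SCD, the desaturase that makes oleic acid, had 11.67, 11.58 and 11.71 with amiloride against 14.04, 14.28 and 14.04 with DMSO and fell by 2.46 ± 0.12 (adjusted p = 4e-10, limma). ACLY, which supplies cytosolic acetyl-CoA, had 11.39, 11.47 and 11.26 with amiloride against 13.13, 13.13 and 13.13 with DMSO and fell by 1.76 ± 0.11. CHKA, the choline kinase at the start of phosphatidylcholine synthesis, rose by 1.56 ± 0.12. The mitochondrial oxidation enzymes CPT2 and ACADVL fell by 1.09 ± 0.11 and 0.92 ± 0.16. In JJN3 9 of the 23 fell and 4 rose, with a median of -0.18. ACLY changed by -0.24 in JJN3 and was not called there, and the difference of -1.52 ± 0.15 was called.

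DNA replication genes fell for 32 of 41 and rose for 1, MCM7, with a median of -0.85. At origins, CDC6, which loads the helicase, had 10.54, 10.66 and 10.52 with amiloride against 12.21, 12.29 and 12.17 with DMSO and fell by 1.65 ± 0.12, and ORC1 fell by 1.80 ± 0.14 with 2 of its 3 amiloride arrays below the reference. Of the helicase genes, MCM10 had 8.65, 8.71 and 8.31 with amiloride against 10.98, 11.16 and 10.77 with DMSO and fell by 2.42 ± 0.11 (adjusted p = 3.8e-10, limma). The ring subunits differed among themselves: MCM4 fell by 2.22 ± 0.13, MCM7 rose by 0.48 ± 0.15, and MCM2 and MCM3, at -0.09 and 0.23, were not called. Of the polymerases, POLA2 had 9.16, 8.54 and 8.35 with amiloride against 12.09, 11.67 and 11.99 with DMSO and fell by 3.23 ± 0.21, and POLD3 fell by 2.09 ± 0.10. RRM2, the regulated subunit of ribonucleotide reductase, had 7.31, 7.33 and 7.31 with amiloride against 10.42, 10.31 and 10.15 with DMSO and fell by 2.98 ± 0.12 (adjusted p = 1.1e-10, limma). TK1, which salvages thymidine, fell by 1.65 ± 0.22. Among chromatin assembly genes CHAF1B had 8.58, 8.11 and 7.90 with amiloride against 11.40, 11.36 and 11.40 with DMSO, while its partner CHAF1A changed by -0.17 and was not called. UHRF1, which recruits the maintenance DNA methyltransferase, fell by 2.16 ± 0.15. In JJN3 the median was -0.30, and the difference between the lines was called for 17 of the 41, each with the lower change in KMS12-BM. Among genes above the reference, which 40 of the 41 were, that difference was called for 37.4% and with the lower change in KMS12-BM for 17.1%.

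The E2F site was searched in a pair of forms, TTTCCCGC and TTTGGCGC, on both strands. The first was in 10 of 37 replication genes with a window, 27.0%, against 2.58% of measured genes, and of those 10, 7 fell and 1 rose. The second was in 8 of 37, 21.6%, against 1.0%, and all 8 fell. In 27 cell cycle regulators with a window the first form was in 1, 3.7%, which was not called, and the second in 4, of which 3 fell. In 21 repair genes the forms were in 3 and 1, all of which fell. Windows of 80 bases from 3 genes that fell, chosen after their values were seen, show the first form in UHRF1 and the second in CDC6 and POLA1, in capitals, with the letters of UHRF1 and POLA1 on the opposite strand to those searched.
UHRF1, chr19:4909451-4909530, plus strand: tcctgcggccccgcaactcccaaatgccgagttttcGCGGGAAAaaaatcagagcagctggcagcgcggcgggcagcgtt
CDC6, chr17:40287849-40287928, plus strand: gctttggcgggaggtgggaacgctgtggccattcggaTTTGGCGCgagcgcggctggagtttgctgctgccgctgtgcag
POLA1, chrX:24693745-24693824, plus strand: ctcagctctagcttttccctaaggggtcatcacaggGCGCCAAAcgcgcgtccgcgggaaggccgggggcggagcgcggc
POLA1, the catalytic partner of POLA2, had 9.38, 9.0 and 8.95 with amiloride against 10.77, 10.72 and 10.51 with DMSO and fell by 1.56 ± 0.11 (adjusted p = 3.3e-08, limma).

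Repair and fork protection genes fell for 15 of 22 and rose for 3. FANCI of the Fanconi pathway had 8.71, 8.91 and 8.53 with amiloride against 11.35, 11.31 and 11.15 with DMSO and fell by 2.55 ± 0.13 (adjusted p = 1.1e-09, limma). TIMELESS, which steadies stalled forks, had 9.06, 9.07 and 8.68 with amiloride against 11.26, 11.11 and 11.18 with DMSO and fell by 2.25 ± 0.13. Its partner CLSPN fell by 1.48 ± 0.11. The recombination genes XRCC2 and EXO1 fell by 1.47 ± 0.15 and 1.3 ± 0.12, while BRCA1, named after its value was seen, was at -0.03 and not called.

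Cell cycle regulators fell for 13 of 35 and rose for 3. CCNE2, a cyclin of entry into S phase, had 6.73, 6.80 and 6.63 with amiloride against 9.11, 9.08 and 8.63 with DMSO, at least 3.87-fold lower, and the phosphatase gene CDC25B fell by 1.45 ± 0.09 with 2 of its 3 amiloride arrays below the reference. E2F2 fell by 1.55 ± 0.13. On the side of the brakes, RB1 had 11.84, 11.43 and 11.73 with amiloride against 10.13, 9.82 and 9.51 with DMSO, a rise of 1.85 ± 0.15, and the inhibitor gene CDKN1B had 13.05, 13.31 and 13.20 with amiloride against 12.19, 12.09 and 11.84 with DMSO, a rise of 1.15 ± 0.11 (adjusted p = 4.3e-07, limma). CCND1, the oncogene of this line, was not called, at 0.10 ± 0.16, and CDKN1A, the inhibitor that p53 induces, lay below the reference at 6.15, 6.04 and 6.17 with amiloride and 6.19, 6.04 and 6.01 with DMSO.

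Mitosis genes were mixed: 12 of 38 rose and 14 fell, with a median of 0.03 whose sign turned under some alternatives. CDC20, the activator of the anaphase ligase, had 10.72, 11.25 and 11.32 with amiloride against 10.05, 10.13 and 10.36 with DMSO, a rise of 0.91 ± 0.17, and AURKA, a spindle pole kinase, had 11.80, 12.30 and 12.27 with amiloride against 11.34, 11.52 and 11.42 with DMSO, a rise of 0.70 ± 0.10. KIF18A, a motor that dampens chromosome movement, fell by 1.9 ± 0.10, and the kinetochore subunit gene SPC24 by 1.95 ± 0.19. Amiloride array 1 was the lowest of its group for CDC20 and AURKA. The JJN3 median was -0.41, and of the 21 members whose change differed between the lines 17 had the higher change in KMS12-BM. Among genes above the reference the difference was called for 37.4%, and with the higher change in KMS12-BM for 20.3%.

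Of 19 p53 targets 6 rose and 4 fell. FAS, a death receptor, had 9.80, 9.96 and 9.95 with amiloride against 8.48, 8.65 and 8.52 with DMSO, a rise of 1.35 ± 0.16. TIGAR, which lowers glycolytic flux, had 8.37, 8.64 and 8.73 with amiloride against 6.59, 6.75 and 6.66 with DMSO, at least 3.01-fold higher. The repair gene DDB2 fell by 1.08 ± 0.12. BAX changed by -0.20 ± 0.07 with overlapping arrays, and its call (adjusted p = 0.036, limma) was lost under 7 of 14 alternatives.

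Glycolytic genes fell for 17 of 24, and SLC16A4, listed with them as a lactate-family carrier, was the 1 that rose. ALDOC had 6.37, 6.10 and 6.36 with amiloride against 9.38, 9.41 and 9.34 with DMSO, at least 5.24-fold lower. PFKM, a phosphofructokinase gene, had 8.49, 8.58 and 8.12 with amiloride against 9.64, 9.93 and 9.67 with DMSO and fell by 1.35 ± 0.10. PDK1, which shuts pyruvate dehydrogenase, fell by 1.2 ± 0.10, and in JJN3 it fell by 2.38, a difference of 1.18 ± 0.14 (adjusted p = 2.6e-05, limma). GAPDH, at -0.16, was not called. Genes of the hypoxia list rose for 7 of 18 and fell for 1, P4HA1, a share of rises near the 37.0% among genes above the reference. Of the 11 inducible targets 4 rose, with a median of 0.06, and in JJN3 8 of these 11 fell. The other rises were 3 of 7 genes for the oxygen-regulated factors and their sensors. HIF1A, the oxygen-regulated factor, had 11.97, 12.16 and 12.32 with amiloride against 10.52, 10.68 and 10.49 with DMSO, a rise of 1.58 ± 0.09 (adjusted p = 3.6e-09, limma), and EGLN1, its oxygen sensor, rose by 1.03 ± 0.12. KDM3A, a histone demethylase gene, had 10.29, 10.78 and 10.76 with amiloride against 9.17, 9.31 and 9.29 with DMSO, whereas it fell by 0.59 in JJN3 (adjusted p = 0.0025, limma).

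NRF2 and glutathione genes fell for 9 of 19 and rose for 4. NFE2L1, a relative of NRF2 that governs proteasome genes, had 12.62, 12.76 and 12.66 with amiloride against 11.05, 11.02 and 10.95 with DMSO, a rise of 1.67 ± 0.13 (adjusted p = 3.9e-08, limma). GSS, the second enzyme of glutathione synthesis, had 5.76, 5.76 and 5.72 with amiloride against 7.42, 7.73 and 7.62 with DMSO, at least 1.52-fold lower, and TALDO1 of the pentose phosphate pathway fell by 1.5 ± 0.13. Proteasome genes fell for 10 of 29 and rose for 4. PSMA3 of the core fell by 1.10 ± 0.14 and PSMD4, a ubiquitin receptor, by 0.72 ± 0.08. Cytosolic heat shock genes fell for 7 of 14 and rose for 2. HSPB1, a small chaperone gene, fell by 0.77 ± 0.17, and HSPA4, an exchange factor, rose by 1.08 ± 0.08. Oxidative phosphorylation genes had 5 up and 5 down of 23, among them NDUFB5 of complex I at 1.02 ± 0.10 and UQCRC2 of complex III at -1.64 ± 0.12.

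Kinases of the CLK, DYRK, SRPK and HIPK families, with PRP4K, rose for 9 of 17 and fell for none. Rises numbered 3 of 4 CLK, 2 of 5 DYRK, 1 of 3 SRPK and 2 of 4 HIPK genes. CLK1, which phosphorylates SR proteins, had 9.16, 9.49 and 9.37 with amiloride against 7.78, 7.67 and 7.17 with DMSO, a rise of 1.80 ± 0.16 (adjusted p = 2.1e-07, limma), and CLK3 had 11.03, 11.26 and 11.10 with amiloride against 9.58, 9.75 and 9.84 with DMSO, a rise of 1.41 ± 0.09. CLK2 had 10.03, 10.32 and 10.06 with amiloride and 10.17, 10.25 and 10.29 with DMSO and was not called, while CLK4 was called but below the reference. DYRK1A rose by 1.31 ± 0.12 and HIPK3 by 1.62 ± 0.10. Among splicing factors SRSF8 rose by 1.48 ± 0.11 and PTBP2 by 1.40 ± 0.22, while SRSF3 fell by 0.94 ± 0.14 and HNRNPR by 0.98 ± 0.10. Of 41 core spliceosome genes 15 rose and 9 fell. DHX16, a helicase of the first splicing step, had 9.88, 10.06 and 10.07 with amiloride against 8.45, 8.53 and 8.57 with DMSO, a rise of 1.48 ± 0.08, and EFTUD2 of the U5 particle fell by 1.04 ± 0.12. Gene-level values do not show splicing itself.

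Genes of nonsense-mediated decay, which destroys transcripts with an early stop codon, rose for 8 of 10 and fell for none, with a median of 1.06. UPF2 had 10.62, 10.93 and 10.89 with amiloride against 9.06, 9.27 and 9.01 with DMSO, a rise of 1.70 ± 0.11 (adjusted p = 1.1e-08, limma), and UPF1, the helicase, had 10.72, 11.02 and 10.90 with amiloride against 9.81, 9.27 and 9.68 with DMSO, a rise of 1.29 ± 0.13. The list also holds 3 transcripts that the pathway degrades or that host small nucleolar RNAs, of which GADD45B rose by 1.5 ± 0.16 and SNHG8 by 0.99 ± 0.17. In JJN3 UPF2 rose by 0.97 (adjusted p = 3.7e-05, limma) and UPF1 changed by 0.11.

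TFIID, which TBP and its associated TAF proteins form to open transcription at core promoters, held members of both extremes. Of 16 subunits 9 rose, 2 fell and 5 were not called. TAF5, a scaffold subunit, had 12.80, 13.11 and 13.30 with amiloride against 9.94, 9.78 and 9.78 with DMSO, a rise of 3.24 ± 0.17 (adjusted p = 9.8e-10, limma). TAF9B had 7.54, 7.67 and 7.66 with amiloride against 11.27, 11.17 and 10.96 with DMSO and fell by 3.51 ± 0.13 (adjusted p = 7.3e-11, limma). Its close relative TAF9 had 8.89, 8.93 and 8.82 with amiloride and 8.75, 8.92 and 8.78 with DMSO and was not called. TAF7 and TAF2 rose by 1.37 ± 0.15 and 1.31 ± 0.11, TAF3, TAF8, TAF1 and TAF11 by 0.47 to 1.18, and TBPL1, a relative of TBP, by 0.51 ± 0.13 with overlapping arrays. TAF12, with its DMSO arrays under the reference, was at least 1.18-fold higher. TAF4B fell by 0.88 ± 0.10. TBP itself, TAF6, TAF10 and TAF13, at 0.17, 0.06, -0.07 and 0.21, were not called. In JJN3 TAF5 rose by 1.27 and TAF9B fell by 0.61 (adjusted p = 9.4e-05 and 0.0049, limma), each by less than in KMS12-BM, with differences of 1.97 ± 0.24 and -2.89 ± 0.19.

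**Figure D4:**
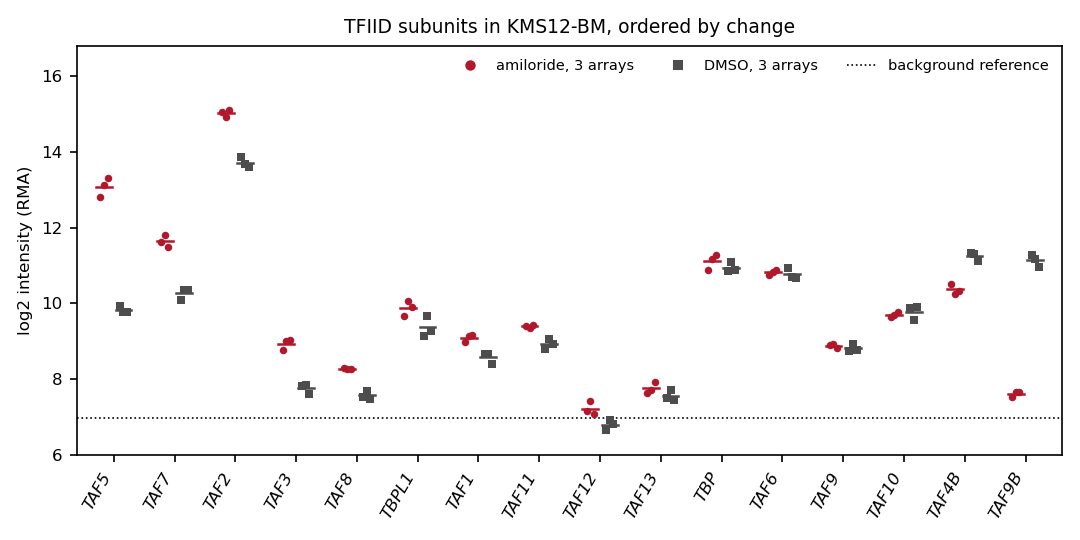
Log2 RMA intensity of the 16 TFIID subunits on each KMS12-BM array, amiloride as red circles left of DMSO as grey squares, with bars at the group means, ordered from the largest rise to the largest fall. TAF5 on the left and TAF9B on the right differ by over 3 log2 units between the groups, and the background reference is dotted.

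MYC had 14.96, 14.81 and 14.42 with amiloride against 15.60, 15.72 and 15.55 with DMSO and fell by 0.89 ± 0.12 (adjusted p = 2.4e-05, limma). It fell in JJN3 as well, by 0.38. Of 25 genes of the MYC network and ribosome assembly 6 rose and 9 fell, BOP1 falling by 1.14 ± 0.24 and WDR43 rising by 0.84 ± 0.07. Of 19 cytosolic ribosomal protein genes 2 rose, RPS15 by 0.42 ± 0.08 and RPL19 by 0.23 ± 0.07, and none fell.

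In the BCL2 family 7 of 15 rose and 2 fell, with rises on both sides of the survival balance. Of the 15, 8 had a mean over the 18 arrays above the reference, and of all such genes 37.0% rose and 24.4% fell. Of the 2 falls, that of BAX lost its call under 7 of 14 alternatives. Of the protective members, BCL2 had 13.65, 13.83 and 13.87 with amiloride against 13.02, 12.89 and 12.82 with DMSO, a rise of 0.87 ± 0.17, and MCL1, on which myeloma cells depend, rose by 0.61 ± 0.11. Of the killers, BCL2L11, the BH3-only protein BIM, had 10.06, 9.90 and 10.10 with amiloride against 9.11, 8.80 and 8.99 with DMSO, a rise of 1.05 ± 0.12 (adjusted p = 3.3e-06, limma). Death receptor and caspase genes rose for 9 of 16 and fell for 3. TNFRSF10B, the TRAIL receptor that CHOP can induce, had 8.37, 8.86 and 8.51 with amiloride against 7.15, 7.41 and 7.11 with DMSO, a rise of 1.36 ± 0.13, while TNFRSF1A, the first TNF receptor, had 9.40, 9.29 and 9.14 with amiloride against 11.45, 11.14 and 11.12 with DMSO and fell by 1.96 ± 0.13. BIRC2, a ubiquitin ligase that restrains cell death and NF-kB, rose by 1.16 ± 0.08. CASP2 fell by 0.99 ± 0.14.

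NF-kB genes rose for 10 of 20 and fell for 1. Of the 10 targets measured, 4 rose and 6 were not called, with a median of 0.24. Only 1 of these 10 targets had a mean above the reference. ICAM1, an adhesion molecule and classic target, had 11.91, 12.43 and 12.55 with amiloride against 9.73, 9.42 and 9.75 with DMSO, a rise of 2.67 ± 0.28 (adjusted p = 1.5e-06, limma). Of 5 inhibitors 4 rose: NFKBIE had 9.25, 10.23 and 10.05 with amiloride against 7.46, 7.58 and 7.61 with DMSO, and CYLD rose by 1.78 ± 0.12, while NFKBIA, named after its value was seen, was at -0.11 and not called. The difference between the lines was called for 11 of the 20, each with the higher change in KMS12-BM. With the higher change in KMS12-BM it was called for 9.78% of all genes and 20.3% of those above the reference. Interferon genes had 5 up and 1 down of 19. IFIH1, a sensor of double-stranded RNA, had 9.11, 9.16 and 9.05 with amiloride against 7.0, 7.04 and 6.51 with DMSO, a rise of 2.26 ± 0.13 with 1 DMSO array below the reference, and 12 of 16 interferon targets were not called.

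Of 22 sodium channel, exchanger and pump genes 2 rose and 7 fell, and 6 had a mean above the reference. SCNN1A, the channel subunit, had 4.07, 4.10 and 4.02 with amiloride and 4.24, 4.24 and 4.20 with DMSO, far below the reference, and its call (adjusted p = 0.015, limma) was lost under 4 of 14 alternatives. ASIC1, a related acid-sensing channel, was below the reference at 5.37, 5.22 and 5.11 with amiloride and 6.40, 6.28 and 6.21 with DMSO. The exchanger gene SLC9A8 rose by 0.64 ± 0.10, and the sodium pump subunit gene ATP1B3 fell by 0.73 ± 0.12. OXSR1, a kinase that controls chloride cotransporters, had 9.63, 9.41 and 9.19 with amiloride against 11.40, 11.42 and 11.16 with DMSO and fell by 1.91 ± 0.12 (adjusted p = 8.3e-09, limma). Of 10 polyamine genes 3 rose and 4 fell. AMD1, which supplies the aminopropyl donor, had 11.18, 11.09 and 10.81 with amiloride against 12.48, 12.87 and 12.42 with DMSO and fell by 1.56 ± 0.11, and AZIN1, which protects ornithine decarboxylase, fell by 1.02 ± 0.11. SAT1, which acetylates polyamines for breakdown, had 7.05, 7.23 and 6.90 with amiloride against 5.25, 5.29 and 5.15 with DMSO, at least 1.05-fold higher, and ODC1 rose by 0.77 ± 0.10.

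Of 17 myeloma surface antigen genes 2 rose, 5 fell and 10 were not called. TNFRSF17, the antigen BCMA, had 9.65, 10.15 and 9.78 with amiloride and 9.25, 10.25 and 9.70 with DMSO, and CD38 had 11.33, 10.98 and 11.31 with amiloride and 11.86, 10.94 and 11.84 with DMSO. Both overlapped and neither was called, at 0.13 ± 0.26 and -0.34 ± 0.23. ITGB7 had 8.17, 8.0 and 7.74 with amiloride against 9.72, 9.25 and 9.82 with DMSO and fell by 1.63 ± 0.19, and CD27, a survival receptor of plasma cells, fell by 1.37 ± 0.15. Among lineage factors, BACH2, which holds back plasma cell differentiation, had 6.92, 7.34 and 7.50 with amiloride against 5.50, 5.51 and 5.64 with DMSO, at least 1.2-fold higher. MZB1, an ER cochaperone of antibody assembly, fell by 1.47 ± 0.21, and POU2AF1, a coactivator of immunoglobulin genes, by 0.92 ± 0.19. Of 10 genes often used to scale expression assays 6 fell and 1 rose, with TFRC falling by 1.31 ± 0.18 and HPRT1 by 1.29 ± 0.12.

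Set beside JJN3, the change with amiloride differed between the lines for 4148 genes, 18.5%, and 207 genes were called in opposite directions in both lines with a called difference. Medians in KMS12-BM and JJN3 were 0.58 and -0.04 for the integrated stress response, 0.60 and -0.17 for cytosolic synthetases, and 0.47 and -0.58 for serine and one-carbon enzymes. They were -0.54 and -0.64 for glycolytic enzymes and -0.81 and -0.53 for cholesterol synthesis. The dose was higher in JJN3, and line and dose cannot be told apart.

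**Figure D5:**
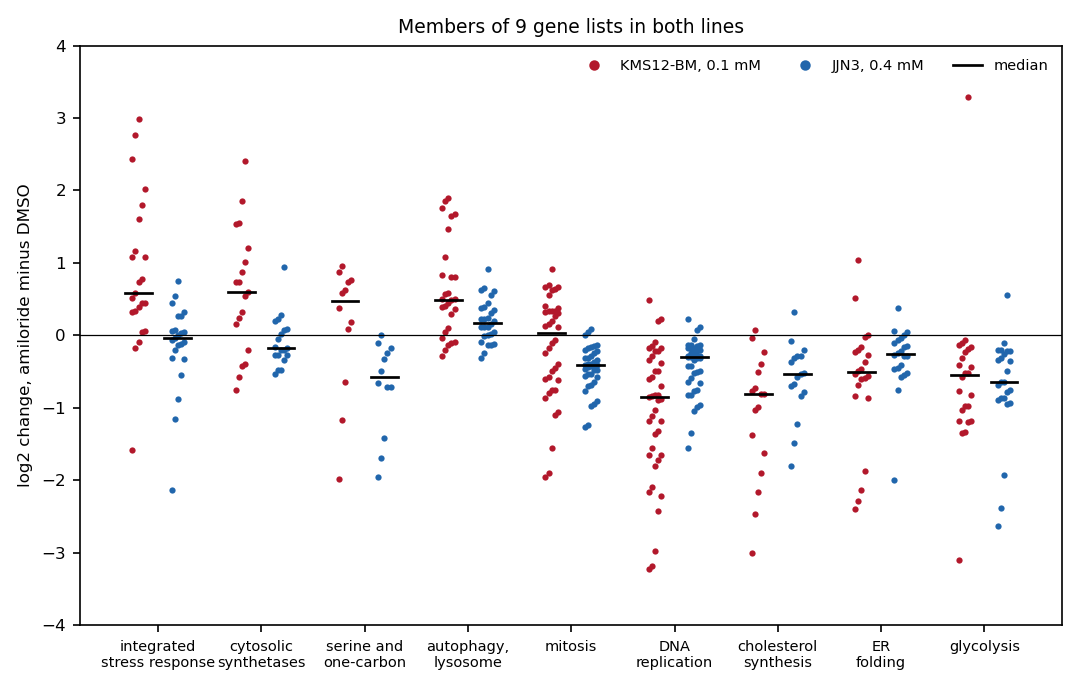
Log2 change with amiloride of each measured member of 9 lists, KMS12-BM at 0.1 mM in red on the left and JJN3 at 0.4 mM in blue on the right of each pair, with black bars at the medians. Stress response, synthetase and one-carbon genes lie mostly above 0 in KMS12-BM and at or below it in JJN3, while cholesterol synthesis and glycolytic genes lie mostly below 0 in both.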

How the data were processed

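RNA from 18 arrays was measured, and the deposited values are log2 intensities that the authors made by RMA, per the submitters' processing notes. The RMA version and genome build are not given in the sources used here. Of 70523 probe sets, GEO's platform annotation gives 1 symbol to 23781 and several to 1543, and does not list 45199. The probe set with the highest mean over 18 arrays was kept for each of 22465 genes. Column medians were 4.5 to 4.69. The number of arrays limits the precision.

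A limma model (3.58.1, R 4.3.3) with 6 group means over 18 arrays gave 12 residual degrees of freedom. It was tested on simulated data. Tests were two-sided at a Benjamini-Hochberg adjusted p of 0.05. Some ERCC sets carry signal, so the reference drawn from them may not measure background alone. Tables and figures were made with Python 3.11.15, pandas 2.3.3, numpy 2.4.6 and matplotlib 3.10.9.

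The members and gene lists were chosen with earlier results of these data known. Named genes were the 12 largest rises and falls without overlap and above the reference, up to 2 called members with the largest change for each role of a list, all TFIID subunits and a fixed set of targets and markers. Other genes, among them those named as not called, were chosen after their values were seen. Promoter windows are RefSeq's (GRCh38.p14), and 15247 measured genes had one. Alternatives varied the arrays fitted, normalization, filter, probe set rule, variance model, replicate block and each array left out.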

Additional observations from a re-analysis of the deposited data

Results flagged for a closer look

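The response to amiloride was called in opposite directions in KMS12-BM at 0.1 mM and JJN3 at 0.4 mM, with a called difference (limma), for 12 of the genes named. Differences, KMS12-BM minus JJN3 on the log2 scale, were 3.58 for CTH, 2.92 for ALDH1L2, 2.18 for PSAT1 and 1.39 for SHMT2, enzymes of cysteine, serine and folate metabolism. CARS1 differed by 2.32, SLC6A9 by 1.97 and GOT1, an aspartate aminotransferase gene, by 0.91. KDM3A differed by 1.94, CCNG1, a p53 target, by 1.29, and MXI1 by 0.94. The difference was -1.14 for SLC7A6 and -1.43 for HNRNPR, which fell in KMS12-BM and rose in JJN3. For SLC6A9 both JJN3 means and the KMS12-BM DMSO mean lay below the background reference, and for CTH the JJN3 amiloride and KMS12-BM DMSO means did, so these values rest on dim groups. Dose and line cannot be told apart.

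Probe sets without a single gene symbol entered none of the tests above. In a separate limma fit of 46742 of them, 845 that lay above the background reference rose at least 2-fold with amiloride in KMS12-BM and 607 fell at least 2-fold.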

How the results depend on the processing

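The count of genes that fell was 1975 when only genes above the background reference were tested, where fewer genes were tested, against 3055 over all genes. Without one array at a time the calls numbered 6031 to 6530, the rises 3319 to 3680 and the falls 2598 to 2850, and 2-fold rises numbered 733 to 909 and 2-fold falls 570 to 662. The serial codes in the titles run through every group once for each replicate, in the same order, but no label names this as a block. With that order as a replicate block, 7309 genes were called, against 6865 without it. The difference between the lines was called for 4591, against 4148. Deviations of amiloride and DMSO arrays in the same place of that order correlated at 0.09, 0.23 and 0.11. These deviations are from each group's own mean, so positive values in the same place bring negative covariances, on average, for different places. Whether the order pairs the arrays was not tested, and the main fit has no block. A further quantile normalization gave 7042 calls, with 599 rises and 703 falls of at least 2-fold, against 790 and 619. Centring each array on its median gave 6713. Over 14 settings the 247 named genes gave 3436 values, of which none reversed, 40 lost their call and 7 gained one. The lost calls were of BAX, CCNE1, CD8A, COX7A2, GLUL, PSAT1, RPL19, SCNN1A, SLC9A9 and SRPK1. The median's sign turned under some alternatives for amino acid carriers, mitochondrial synthetases, mitosis, p53, SR and hnRNP, spliceosome, oxidative phosphorylation, interferon, lineage, myeloid, stromal and erythroid lists. Dim probe sets limit the folds of genes near the reference.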

Other observations

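Other gene groups were taken by symbol or RefSeq gene type after the data were seen, among genes with a mean above the background reference. Of 225 zinc finger genes whose symbols begin with ZNF, most of them DNA-binding repressors, 112 rose (49.8%) and 15 fell (6.67%) with amiloride in KMS12-BM, with a median of 0.31. Of 6188 other protein-coding genes 37.8% rose and 26.3% fell, with a median of 0.10. Of 33 Rab GTPase genes of vesicle traffic 19 rose and 2 fell. Of 24 Mediator subunit genes 13 rose and 3 fell, and of 12 histone demethylase genes 8 rose and 3 fell. Mitochondrial ribosomal protein genes rose for 30 of 61 and fell for 9, and proton pump subunit genes of the V type rose for 8 of 14 and fell for 1. Solute carrier genes went the other way, with 23 of 110 up and 53 down and a median of -0.24.

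The share of protein-coding genes that rose was 28.8%, 37.3%, 39.4%, 40.0% and 45.8% in 5 equal groups of genes ordered from the shortest to the longest genomic span, with medians of 0.00, 0.12, 0.14, 0.12 and 0.20. The shares that fell were 26.6%, 25.6%, 26.0%, 26.1% and 23.9%.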
